A study of Homo sapiens with 12 samples.

Results

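The vehicle-treated state of U-937 cells was described here from a single list of H3K4me2 peaks. U-937 is an established human cell line of the monocytic lineage, labelled as acute myeloid leukaemia cells, and the vehicle was DMSO, given for 24 hours. The series holds 12 chromatin immunoprecipitation libraries, 8 of H3K4me2 and 4 of input DNA. They cover DMSO, ATRA (all-trans retinoic acid), Corin (an inhibitor of the CoREST complex) and ATRA with Corin. The members were all 65172 peaks of the vehicle list, of 289523 peaks in the 4 lists of the series. Both vehicle H3K4me2 libraries were pooled into that list with the vehicle input as control. It therefore has no replicate spread, no test between samples was possible, and the depth of its libraries is unknown. Intervals of shares are exact 95% binomial (Clopper-Pearson) intervals, intervals of a ratio of 2 shares are 95% intervals computed on the log scale, and both cover counting error only. Neighbouring peaks and genes are not independent.

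H3K4me2 is histone H3 carrying a pair of methyl groups on lysine 4. It marks promoters and enhancers, both active and poised, and in blood cells it is often laid down over lineage genes before they are transcribed. The mark sits on nucleosomes, whereas transcription factors mostly bind the nucleosome-poor stretches between them. PU.1 (encoded by SPI1) and C/EBPα (encoded by CEBPA) are the transcription factors best known for directing cells into the monocyte and granulocyte lineages. A peak shows where the mark was enriched over input and does not measure transcription.

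The promoter sequences of the marker genes CEBPA, MPO, CD33, GATA1 and PAX5 are shown first, since these genes place the cells by lineage. Each is the stretch before the canonical start site (the start of the main annotated transcript), of 150 bases except where annotated exons shortened it to 134 bases for CD33 and 100 for GATA1. They are read from hg38, 5′ to 3′ on the strand of the gene, and capitals mark any match to 11 short motifs searched on both strands. The letters were GAGGAAGT for PU.1 and other ETS factors, TTGCNNAA for C/EBP, TGANTCA for AP-1, TGTGGTT for RUNX, AGATAA for GATA and CAGGGGGC for CTCF. The others were GGGCGG for the GC box, GCGCATGC for NRF1, GGAANNGAA for PU.1 with IRF, ATGCAAAT for the octamer and GTTAATNAT for HNF1. The PU.1 and PU.1 with IRF letters can overlap at GGAA.
CEBPA, chr19:33302535-33302684, minus strand: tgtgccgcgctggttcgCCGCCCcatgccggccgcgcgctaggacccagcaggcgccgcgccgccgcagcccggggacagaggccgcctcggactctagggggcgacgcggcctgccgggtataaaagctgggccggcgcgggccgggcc
MPO, chr17:58280936-58281085, minus strand: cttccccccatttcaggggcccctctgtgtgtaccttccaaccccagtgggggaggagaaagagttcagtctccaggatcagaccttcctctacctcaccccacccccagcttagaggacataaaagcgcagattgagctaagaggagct
CD33, chr19:51224930-51225063, plus strand: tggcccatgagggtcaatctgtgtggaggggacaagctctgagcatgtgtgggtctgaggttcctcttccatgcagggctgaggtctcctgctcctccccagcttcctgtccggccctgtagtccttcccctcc
GATA1, chrX:48786440-48786539, plus strand: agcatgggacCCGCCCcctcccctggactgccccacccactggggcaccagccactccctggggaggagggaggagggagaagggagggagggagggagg
PAX5, chr9:37034269-37034418, minus strand: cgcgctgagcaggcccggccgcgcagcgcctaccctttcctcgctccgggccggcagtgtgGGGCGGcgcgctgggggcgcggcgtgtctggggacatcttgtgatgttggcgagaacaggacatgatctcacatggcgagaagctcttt
Of the 5 promoters shown, those of CEBPA, GATA1 and PAX5 held 1 GC box each, and those of MPO and CD33 held none of the 11; the SPI1 promoter is not described here. Among the 19959 protein-coding promoters of this length, 52.6% held the GC box letters, 3.94% the C/EBP letters and 1.38% the PU.1 letters. A match only says that the letters are there, and its absence says nothing of the factor.

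The next 4 promoters were chosen after their values were seen, because each holds the PU.1 letters. Those letters stood in the promoters of 9 of the 69 genes on the myeloid and pan-leukocyte lists described below, and in 2 of the 101 genes on the other lists. The 9 were FLI1, ITGB2, TLR4, TYROBP, CTSS, ELANE, PRTN3, CD53 and VAV1. Of these, 8 start sites lay under a peak, and that of CD53 lay in a short gap between peaks. In each of the myeloid and pan-leukocyte lists, between 72.2% and 75% of all start sites lay under a peak. The 8 of 9 is thus near the share of the lists themselves. The 2 on the other lists were CD5, a T cell surface protein, and SNAP25, a synaptic protein, neither with a peak within 1 kb. On their own lists, 30% and 4.76% of start sites lay under a peak. The promoters shown are free of annotated exons: PRTN3 (proteinase 3 of neutrophil granules), TYROBP (a signalling adaptor of myeloid receptors), VAV1 (a leukocyte signalling protein) and CD53 (a leukocyte tetraspanin).
PRTN3, chr19:840849-840998, plus strand: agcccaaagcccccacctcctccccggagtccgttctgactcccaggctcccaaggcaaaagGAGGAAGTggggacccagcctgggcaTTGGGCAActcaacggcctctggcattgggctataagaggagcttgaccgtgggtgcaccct
TYROBP, chr19:35908296-35908445, minus strand: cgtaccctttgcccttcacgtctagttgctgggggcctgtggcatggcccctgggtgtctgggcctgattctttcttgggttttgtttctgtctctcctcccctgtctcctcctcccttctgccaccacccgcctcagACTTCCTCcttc
VAV1, chr19:6772558-6772707, plus strand: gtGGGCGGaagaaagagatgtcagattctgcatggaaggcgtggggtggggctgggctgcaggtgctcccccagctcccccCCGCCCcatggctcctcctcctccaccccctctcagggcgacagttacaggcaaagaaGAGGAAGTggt
CD53, chr1:110872998-110873147, plus strand: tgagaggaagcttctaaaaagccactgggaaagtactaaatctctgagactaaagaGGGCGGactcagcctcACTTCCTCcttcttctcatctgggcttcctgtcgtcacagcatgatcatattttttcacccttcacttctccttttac
PRTN3 held the PU.1 letters and a C/EBP match in the same window. The 69 and 101 genes differ in promoter composition, and the lists were chosen with results of these data known, so the counts are a description. In 150 bp windows, the PU.1 letters were absent from the 8 summits and 3 short-gap middles within 50 kb of SPI1. They were also absent from the 17 summits and 8 short-gap middles around CEBPA. Over the whole list they stood in 3.47% of short-gap middles and 0.769% of the summits beside them. Their absence from so few windows therefore says little about these loci, and the windows do not span the whole peaks.

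The 6 marker genes were compared with the lineage of the label. SPI1 lay under a peak of 5064 bp at chr11:47374154-47379217, which reached from 670 bp before its start site to 4393 bp after it. CEBPA lay under a peak of 6434 bp at chr19:33297922-33304355. The start site of CD33, a myeloid receptor, lay under a peak of 1524 bp that began 46 bp before it. MPO, the myeloperoxidase of azurophil granules, had no peak within 32901 bp of its start site. GATA1, the erythroid regulator, had its nearest peak 13483 bp away, and PAX5, the B cell regulator, 5706 bp away at its canonical start site. Thus 3 of the 4 myeloid markers had a peak at the start site and MPO did not, while neither GATA1 nor PAX5 did. For PAX5 this depended on the transcript, since another annotated start site lay under a peak.

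The SPI1 locus held 8 peaks within 50 kb of the start site, covering 22730 bp. Besides the peak at the start site, 3 neighbouring peaks of 2640, 1905 and 3593 bp lay upstream, in chr11:47387665-47396216. CEBPA had 17 peaks and 35224 covered bp, of which 28829 bp lay over 1 kb from any start site. Most of that length was downstream, in peaks of up to 5327 bp that ended 49578 bp beyond the start site. MPO had 2355 covered bp, close to the lower quartile of all protein-coding genes (2001.5 bp). A peak of 10881 bp at the start sites of TSPOAP1-AS1 and MIR142HG began only at the edge of its window.

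Start sites were then counted over 10 gene lists holding 170 genes. Over all 19959 protein-coding genes, 47.3% (9436) had the canonical start site under a peak, 57.8% under a peak or in a gap of at most 500 bp between neighbouring peaks, and 61.3% within 1 kb of a peak. Promoters rich in CpG, with at least 50% GC and an observed to expected CpG ratio of at least 0.6, lay under a peak in 61.4% of 13079 genes and within 1 kb of one in 78.8%. CpG-poor promoters did so in 20.3% and 28.1% of 6880 genes, so counts by class are given with the lists. This split was chosen after the data were seen.

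Of the 15 myeloid transcription factors, 11 had the start site under a peak, among them SPI1, CEBPA, CEBPB, CEBPE, IRF5, KLF4, EGR1, EGR2, GFI1 and FLI1. By class these were 9 of 12 CpG-rich and 2 of 3 CpG-poor promoters. The start sites of RUNX1 and MYB lay in short gaps, 36 and 6 bp from a peak. IRF8, a regulator of monocyte fate, had a peak 966 bp from the canonical start site, and another of its start sites lay under a peak. CEBPD was the exception, with its nearest peak 2649 bp away and 1265 covered bp in the window. The peaks at these start sites had a median width of 4279 bp, against 2524.5 bp for all protein-coding start sites under a peak, and the widest was that of GFI1 with 12533 bp.

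Myeloid surface and signalling genes had 18 of 24 start sites under a peak, 2 of 2 with CpG-rich and 16 of 22 with CpG-poor promoters. They included the integrins ITGAM, ITGAX and ITGB2, the growth factor receptors CSF1R and CSF3R, the scavenger receptors CD36 and CD68, the receptors TLR2 and TLR4, and the chemokine receptors CCR2 and CX3CR1. CLEC12A lay in a short gap. CD14, the lipopolysaccharide co-receptor, had a peak 839 bp away and CLEC7A, the beta-glucan receptor, 763 bp away. FCGR1A had one 673 bp away, but it has near-identical copies that could share reads. MRC1 and CD163, both scavenger receptors of mature macrophages, had no peak within 50 kb, as was the case for 14.2% of all protein-coding genes.

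Granule and antimicrobial genes were divided. The start sites of 13 of 18 lay under a peak, 1 of 1 with a CpG-rich and 12 of 17 with CpG-poor promoters, and the other 5 had no peak within 1 kb. The serine proteases of azurophil granules ELANE, AZU1, PRTN3 and CTSG, lysozyme (LYZ), the calgranulins S100A8 and S100A9, the antimicrobial peptide gene CAMP, the ribonucleases RNASE2 and RNASE3, MMP9, CST7 and CTSS were under peaks. MPO, S100A12, LTF, LCN2 and MMP8 were not. LTF, LCN2 and MMP8 encode proteins of the later granules of neutrophils, as do CAMP and MMP9, which were under peaks of 1968 and 1046 bp. The nearest peak was 4612 bp away for LTF, 9744 bp for LCN2 and 44079 bp for MMP8. S100A12 lies between S100A8 and S100A9, and its nearest peak was 6450 bp away. Pan-leukocyte genes had 9 of 12 start sites under a peak, 2 of 2 CpG-rich and 7 of 10 CpG-poor, and the other 3, PTPRC (CD45), CD53 and ARHGDIB, lay in short gaps.

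**Figure D1:**
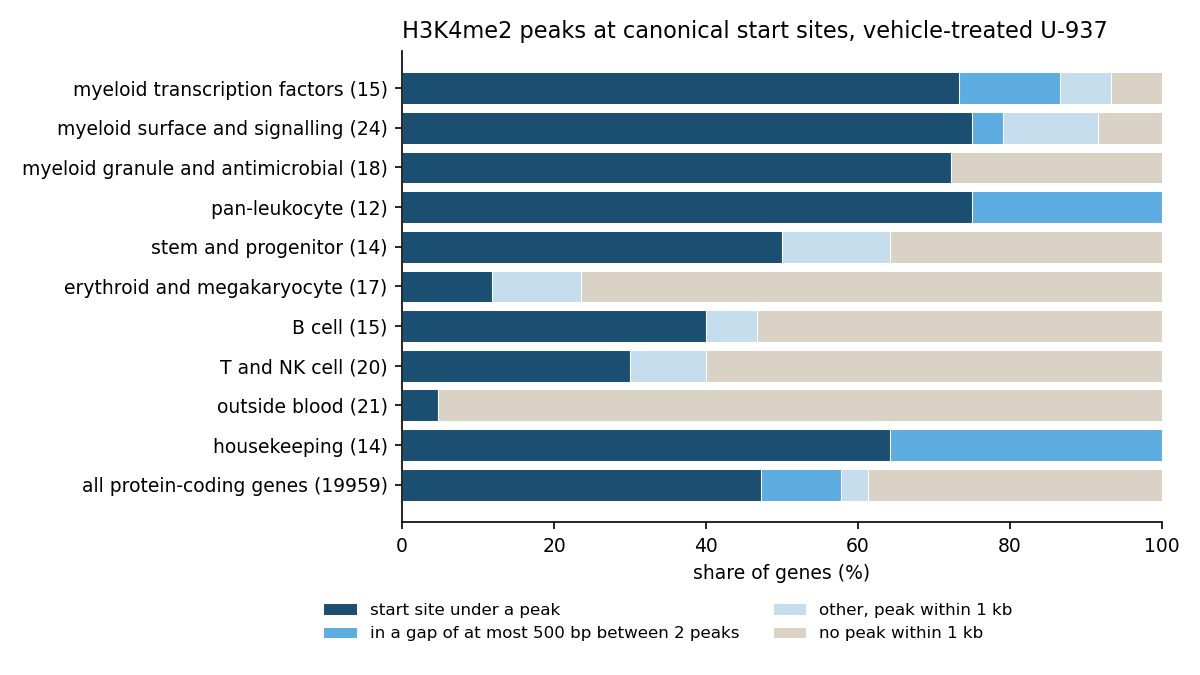
Share of genes (%, horizontal axis) by the position of the canonical start site relative to vehicle H3K4me2 peaks, for each of 10 gene lists and for all 19959 protein-coding genes; numbers of genes are in brackets. The 4 myeloid and pan-leukocyte lists have between 72.2% and 75% of start sites under a peak, against 47.3% of all genes and 4.76% of genes typical of tissues outside blood.

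In the lists of other blood lineages and of tissues outside blood, the counts were lower than in the myeloid lists. Of all CpG-poor promoters 20.3% lay under a peak, and among these lists only the B cell list stood higher in that class. Erythroid and megakaryocyte genes had 2 of 17 start sites under a peak, 0 of 1 CpG-rich and 2 of 16 CpG-poor: NFE2, a factor that granulocytes also express, under 6056 bp, and ITGA2B under 402 bp. KLF1 and TAL1 had a peak within 1 kb, 737 and 31 bp away, and another start site of TAL1 lay under a peak. HBB had no peak within 50 kb. B cell genes had 6 of 15, 0 of 4 CpG-rich and 6 of 11 CpG-poor, among them EBF1, CD79A, IGLL1, CD22 and BLNK. The peak at EBF1, a B cell transcription factor, was 4210 bp wide. T and NK cell genes had 6 of 20, 4 of 6 CpG-rich and 2 of 14 CpG-poor: CD2, BCL11B, TCF7, TBX21, NCAM1 and NKG7. NKG7, a granule protein of cytotoxic cells, lay under 5776 bp in a window with 8 start sites, while CD3D, CD3E and CD3G, subunits of the T cell receptor complex, had their nearest peaks between 9076 and 11259 bp away. Of 21 genes typical of liver, brain, muscle, epithelium, germ cells or pancreas, 1 had its start site under a peak, GAD1, which makes the transmitter GABA, and 7 had no peak within 50 kb. By class these were 1 of 11 CpG-rich and 0 of 10 CpG-poor promoters.

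Stem and progenitor genes stood at 7 of 14 by canonical start site, near the share over all genes, with 5 of 10 CpG-rich and 2 of 4 CpG-poor. By any annotated start site they stood at 11 of 14, above the 54.2% of all protein-coding genes counted so. KIT, FLT3, HLF, MEIS1, HOXA9, HOXA10 and LMO2 lay under peaks. HOXA9 did so only at the edge, since its peak ran from the start site itself to 1788 bp downstream. CD34, GATA2 and ERG had none within 1 kb of the canonical start site, yet another start site of each lay under a peak. The same was true of another start site of MECOM, whose canonical start site was 318 bp from a peak. PROM1 and MYCN had no peak within 50 kb. Of 14 housekeeping genes, all with CpG-rich promoters, 9 lay under a peak and the other 5, GAPDH, TBP, POLR2A, PGK1 and SDHA, lay in short gaps 6 to 92 bp from a peak.

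The short gaps followed a pattern around start sites. Coverage of CpG-rich start sites was highest 400 bp upstream (72.1%) and 200 bp downstream (76.2%). Between these it was lowest 100 bp upstream (53.5%), and it was 61.4% at the start site itself. At CpG-poor promoters it was 20.1% at 300 bp upstream, 18.9% at 100 bp upstream, 20.3% at the start site and 23.1% at 100 bp downstream. In all, 10.5% of protein-coding start sites lay in a short gap. No peaks of the list overlapped or touched, and 17420 of the 65149 gaps between neighbours (26.7%) were at most 500 bp long, with a median of 176 bp. The shortest gap was 102 bp, and how far the peak calling set these lengths was not tested. A start site lay in 15.5% of the short gaps, and 69.6% of them were over 1 kb from one.

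**Figure D2:**
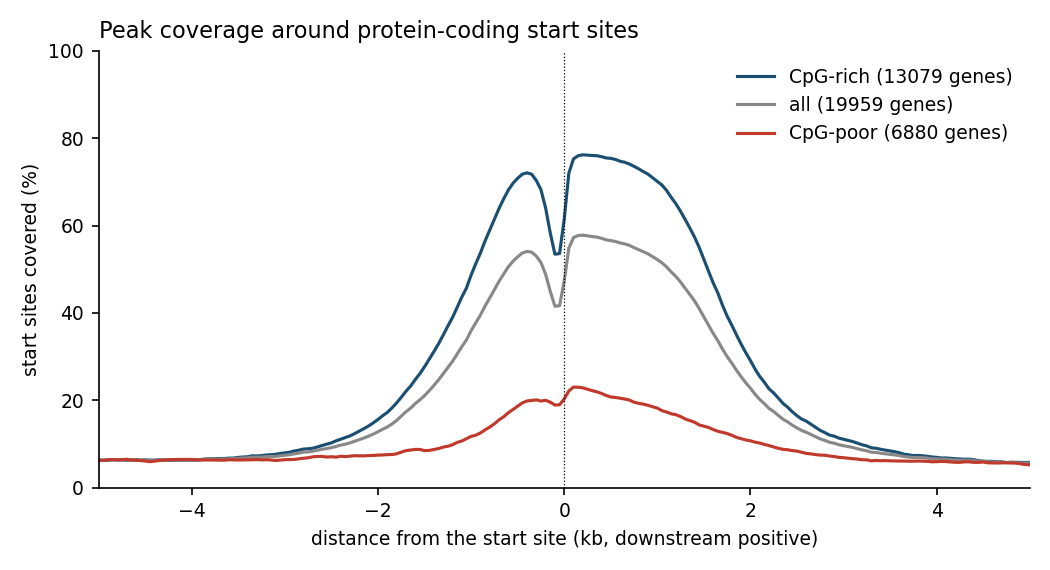
Share of protein-coding start sites covered by a vehicle peak (%, vertical axis) against distance from the start site (kb, downstream positive), for all genes and by CpG class. Coverage of CpG-rich promoters dips next to the start site between maxima of 72.1% upstream and 76.2% downstream, and CpG-poor promoters stay at or below 23.1%.

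Covered length within 50 kb of the start site had a median of 5429 bp over all protein-coding genes, with quartiles of 2001.5 and 10761 bp and a 99th percentile of 30390 bp. It was higher where start sites were dense, from a median of 2682.5 bp for genes alone in their window to 20215 bp where 8 or more start sites shared it. List medians were 18124 bp for myeloid transcription factors, 11383 bp for granule genes, 11353.5 bp for pan-leukocyte genes and 8747.5 bp for myeloid surface genes. They were 8543 bp for stem and progenitor genes, 8395.5 bp for housekeeping genes, 7551 bp for erythroid and megakaryocyte genes, 4413 bp for B cell genes, 4147 bp for T and NK cell genes and 1603 bp for genes outside blood. Above the upper quartile of all genes lay 10 of the 15 myeloid transcription factors and 0 of the 21 genes outside blood.

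**Figure D3:**
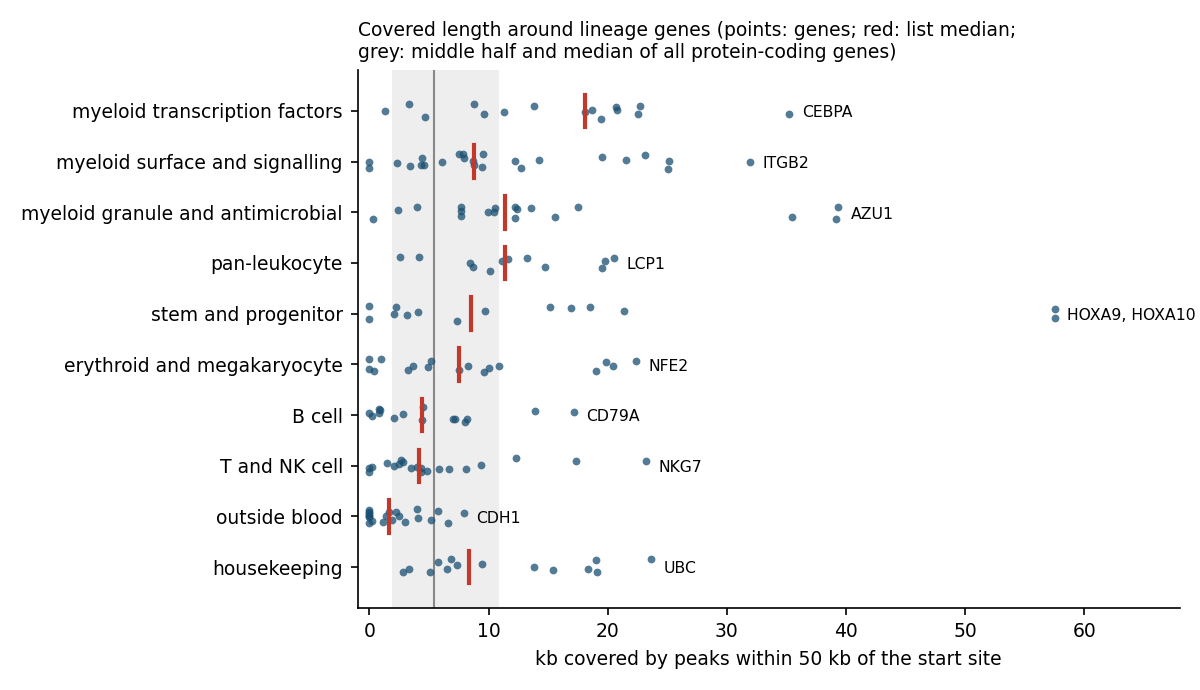
Length covered by vehicle peaks within 50 kb of the start site (kb, horizontal axis) for each gene of the 10 lists; points are genes, spread vertically at random, red bars are list medians, and the grey band and line are the quartiles and median of all protein-coding genes. The HOXA genes, the AZU1 locus and CEBPA lie farthest to the right.

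Within 50 kb of the start site, the most heavily covered locus was the HOXA cluster. The order depended on the window: within 100 kb IL32 had 70830 bp and HOXA10 60915 bp. HOXA9 and HOXA10, homeobox genes that maintain progenitors and are often active in myeloid leukaemia, had 57491 bp covered by 18 peaks, 57.5% of the window and the highest value of any gene, shared with 10 start sites. The HOXC cluster around HOXC9 was also among the 20 loci, with 38986 bp. RNF220, which encodes a ubiquitin ligase, came next with 45387 bp in 21 peaks and only 2 start sites. The loci that followed were led by MROH6 (43681 bp), VAMP2 (43287 bp), PARP10 (43002 bp), STUB1 (42725 bp), CLDN9 (41035 bp) and PPP3R1 (40439 bp). STUB1 had 14 start sites in its window and CLDN9 12, so their totals sum many promoters, whereas PPP3R1, the regulatory subunit of calcineurin, had 2.

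One of the 20 loci held members of the myeloid lists. It was led by AZU1 with 39328 bp, and its neighbours on chromosome 19 include PRTN3 with 39118 bp and ELANE with 35469 bp in their own, overlapping windows. NACC1 led a locus of 39687 bp with 5 start sites, among them that of LYL1, a helix-loop-helix factor of blood progenitors. CKS1B led one of 39262 bp with 8 start sites, among them that of ZBTB7B. FOSB, an AP-1 subunit, had 38298 bp in a window with 5 start sites, and 4508 bp within 10 kb. IL32 had 38517 bp with 9 start sites. MAPKAPK3, a kinase of the p38 pathway, had 37636 bp with 4. Such totals sum the promoters of the window and do not belong to the named gene alone. The remaining loci were led by GSK3A, ARHGDIA, ATP5F1D, PANO1 and ZNF580, between 37263 and 39281 bp.

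Ranking by covered length over 1 kb from any start site, chosen after the data were seen, moved single genes up. RNF220 then led with 42694 bp, followed by CD69, an early activation receptor of leukocytes, with 35234 bp in 35 peaks, the PPP3R1 locus with 33433 bp and the HOXA cluster with 31799 bp. HTRA3 with 31333 bp and SLC7A10 with 30462 bp followed, and CEBPA, whose window overlaps that of SLC7A10, was seventh among loci with 28829 bp. Next came VSIR, an immune checkpoint receptor, with 28766 bp, NACC1 with 27956 bp and MAPKAPK3 with 27418 bp. SMAD3, which transmits TGF-beta signals, had 27270 bp.

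Since no peaks overlapped, each peak was its own domain. Widths ran from 160 to 21877 bp with a median of 741 bp, and the list covered 73.4 Mb, or 2.42% of the 23 chromosomes. Coverage was highest on chromosome 19 (7.58%), which also has the most protein-coding start sites per Mb, and lowest on chromosome 4 (1.18%). The widest peak, chr1:44404797-44426673, reached from 458 bp before the start site of RNF220 to 21418 bp into the gene. The next widest was 14392 bp at ARHGEF2, which encodes a guanine nucleotide exchange factor. Then came 14103 bp over the start sites of MXD3, PRELID1 and RAB24, 13954 bp at HOXA11, and 13815 bp at ZBTB7B.

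The remaining 10 of the 15 widest lay at genes of several kinds. Of these, GFI1 was on a myeloid list and MEIS1 on the stem and progenitor list. Whether regulators were more frequent there than among all genes was not tested. GFI1, a zinc finger transcriptional repressor that acts in granulocyte formation, lay under 12533 bp. RARA, the retinoic acid receptor that ATRA binds, had a peak of 12000 bp between 7389 and 19388 bp into the gene, while its canonical start site lay under only 227 bp. MEIS1, the cofactor of HOXA9, had 11723 bp from 1315 to 13037 bp downstream, besides 4669 bp at its start site. Neither wide peak was free of start sites: that in RARA held 3 annotated start positions and that in MEIS1 held 4, though no canonical protein-coding one. PRKCD (protein kinase C delta) lay under 13355 bp, and the others were at KLF16, CHSY1, MAFG and SIRT7, MNT and FHL3. A single one, 12563 bp inside RIN3, held no annotated start site.

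**Figure D4:**
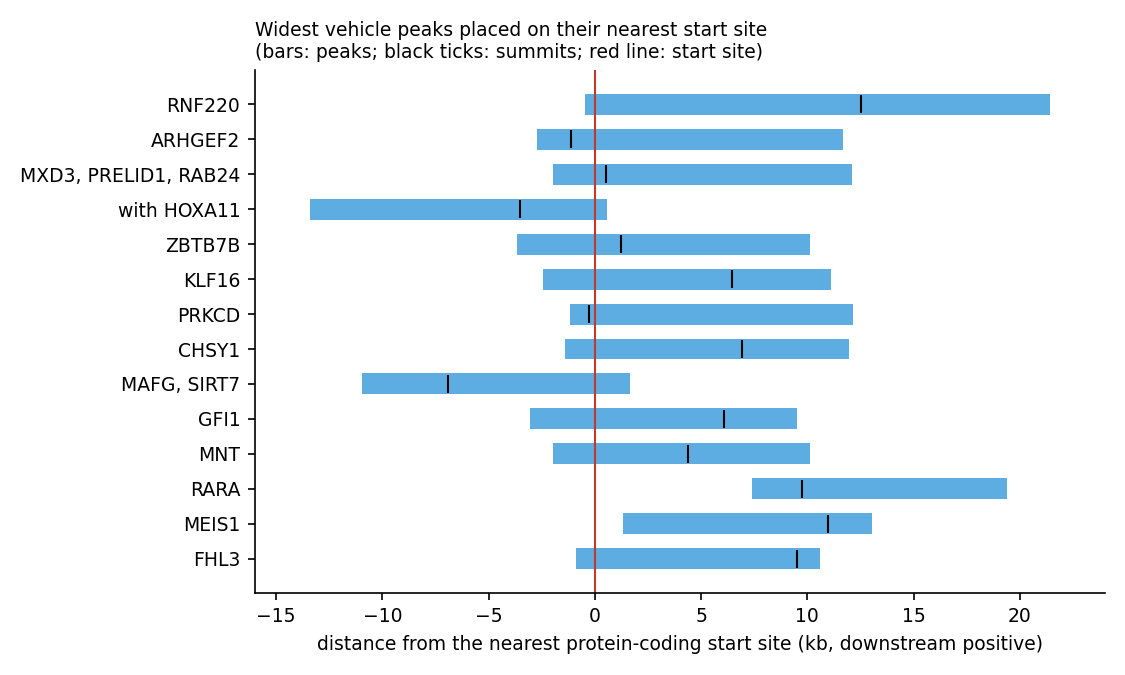
The 15 widest vehicle peaks, except the one inside RIN3, drawn by distance from the nearest protein-coding start site (kb, downstream positive). Bars are peaks, black ticks are summits, and labels are genes whose canonical start site lies under the peak. For RARA and MEIS1 the label is the nearest gene, and other annotated start sites lie under those peaks. The RNF220 peak ends 21418 bp into the gene, and most of the others extend farther downstream than upstream.

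Wide peaks in general extended into genes. Of the 652 widest 1%, 371 held exactly 1 protein-coding start site, and 80.6% (76.2 to 84.5) of these had more length downstream than upstream. Over all 7996 peaks with exactly 1 start site the share was 84.3%, so this orientation was not confined to the widest. A start site of some transcript lay under 84.7% of the widest 1%, against 19.4% of all peaks.

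Most peaks were distal, with the summit over 1 kb from any start site of 38726 protein-coding and lncRNA genes. They numbered 48112, or 73.8% (73.5 to 74.2), of which 32372 lay inside a gene and 15740 outside. The summit was over 10 kb from any start site in 44.4% of all peaks and over 50 kb in 11.7%. Distal peaks were narrower, with a median of 571 bp against 1661 bp for proximal ones, and they made up 56.3% of the covered length. Their median GC content was 48.7%, against 53.4%, with 1.29 CpG per 100 bp against 3.96. The distal share fell with width, from 91.8% below 300 bp to 36.4% between 2000 and 4000 bp and 36.7% above. Because only the summit was placed, a distal peak can still cover a start site. The widest distal peak, of 21877 bp, covers that of RNF220, and 83.1% of all peaks of at least 4000 bp had a start site under them. The 56.3% of covered length therefore includes some length at start sites.

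The sequence between neighbouring peaks was not used to choose them and was examined last. Neighbouring summits 200 to 600 bp apart gave 4622 sites. Windows of 150 bp at the middle between the summits were set beside windows at the summits and 10 kb away. The windows 10 kb away were used only where no peak covered them, so the ratios compare with sequence outside peaks. The PU.1 letters were present in 5.71% (5.06 to 6.42) of the middles, 0.865% of the summit windows and 0.597% of those 10 kb away, a ratio of the middle to 10 kb away of 9.57 (6.36 to 14.4). The C/EBP letters were found in 16.1%, 6.96% and 7.12%, the AP-1 letters in 9.74%, 3.76% and 4.59%, and the RUNX letters in 7.57%, 2.54% and 2.89%, in the same order. Each of these 4 motifs belongs to a factor family with known roles in myeloid cells, and each was more frequent at the middle than at both other places. With summits 300 to 500 bp apart, where these windows do not overlap, the PU.1 letters stood at 6.97% of middles and 1.03% of summits. The C/EBP letters stood there at 17.4% and 6.88%, the AP-1 letters at 10.9% and 3.87%, and the RUNX letters at 8.07% and 2.81%.

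The PU.1 with IRF letters were also more frequent at the middle, by less, at 6.25%, 3.57% and 4.13%, a ratio of 1.51 (1.26 to 1.82). The GATA letters stood at 8.63% of middles, 6.10% of summit windows and 9.39% of windows 10 kb away, so they were more frequent at the middle than at the summits but not than 10 kb away, with a ratio of 0.920 (0.805 to 1.05). The ratios for HNF1, a liver factor, for the octamer, for CTCF and for NRF1 had intervals that included 1. For CTCF the ratio was 3.04 (1.38 to 6.67) with summits 300 to 500 bp apart and 2.54 (1.98 to 3.27) at the middles of short gaps, and for NRF1 it was 4.40 (3.23 to 5.99) at the latter, so these calls depended on the sites. The GC box stood at 6.12% of middles and 6.24% of summits, against 2.87% 10 kb away. Mean GC content was 44.3% at the middles, 49.9% at the summits and 43.8% 10 kb away, and its part in these shares was not tested. One middle is shown as an example, chosen after its letters were seen; it lies 41683 bp downstream of the start site of CTSG (cathepsin G), outside exons, with the PU.1 letters in capitals on the plus strand of hg38.
CTSG downstream, chr14:24534492-24534641, plus strand: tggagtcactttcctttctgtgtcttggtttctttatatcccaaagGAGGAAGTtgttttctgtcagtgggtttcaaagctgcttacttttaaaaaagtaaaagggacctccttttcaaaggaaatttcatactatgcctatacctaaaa
The summits beside it were 468 bp apart.

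**Figure D5:**
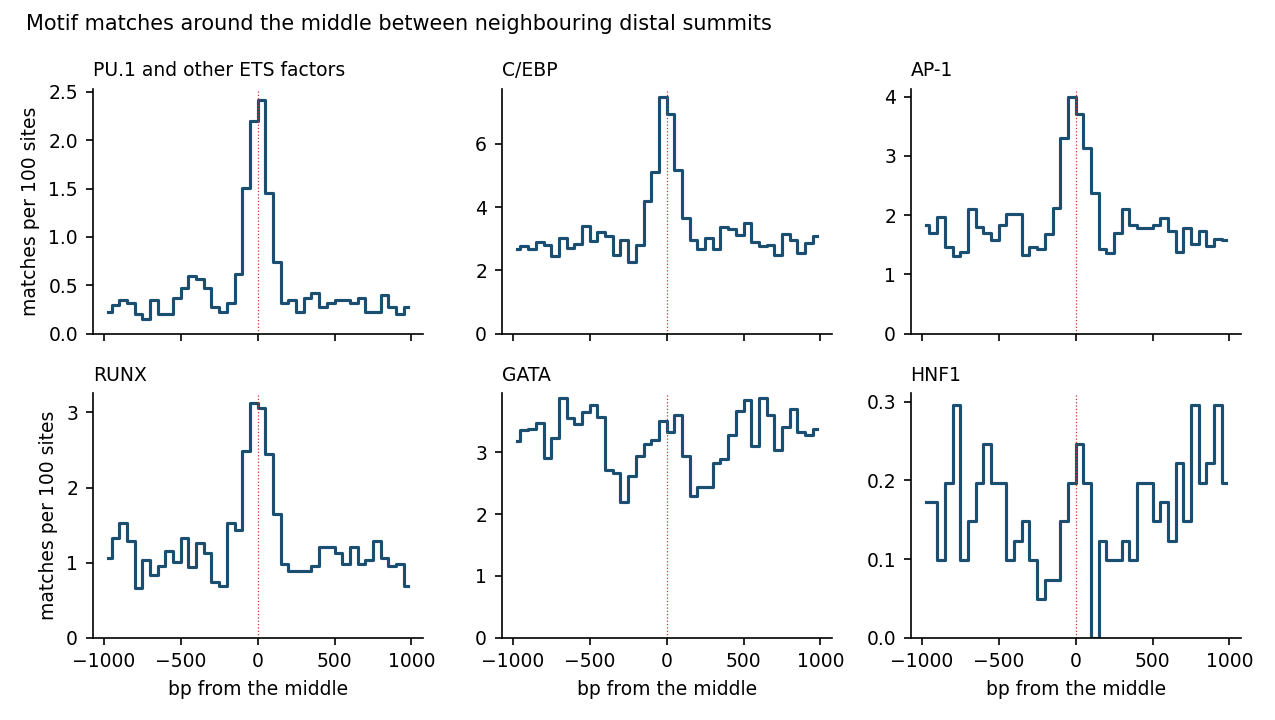
Motif matches per 100 sites in 50 bp bins (vertical axes, each with its own scale from 0) against distance from the middle between neighbouring summits (bp), for the 4056 sites over 1 kb from a start site and 6 of the 11 motifs. The PU.1, C/EBP, AP-1 and RUNX letters peak at the middle, whereas the GATA and HNF1 letters show no such single peak.

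At CpG-poor promoters the PU.1 letters also differed with the state of the start site. They were present in the 150 bases before 5.08% (3.98 to 6.36) of 1399 CpG-poor start sites under a peak and 1.27% (0.979 to 1.63) of 4950 without a peak within 1 kb. The RUNX letters stood at 4.36% and 2.55%, the C/EBP letters at 7.29% and 6.99%, and the AP-1 letters at 6.15% and 5.66%. The intervals of the last 2 motifs overlapped. Other motifs differed too: the GC box letters stood at 29.7% and 14.6%, the PU.1 with IRF letters at 6.58% and 3.84%, and the GATA letters, in the other direction, at 4.07% and 8.75%. Mean GC content was 56.1% and 50.7%, and its part was not tested.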

How the data were processed

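Chromatin immunoprecipitation of H3K4me2 was followed by paired-end sequencing. Trimmomatic, Bowtie2, Picard and MACS2 and the build hg38 are named, per the submitters' processing notes, with no role or version; the threshold of the peak calls is not given in the sources used here. The deposited list, 1 per treatment, is named as an optimal set of peaks reproducible by overlap against input. Only positions and summit offsets of the vehicle list were used; no score, fold or p-value column was read, and no value per library was used. The 2 vehicle libraries were grouped by their titles.

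Start sites came from GENCODE release 44 on hg38, and 0 peaks ran past the end of a chromosome. Coordinates are counted from 1. Distances, covered bp, widths and motif matches were computed with Python 3.11.15, pandas 2.3.3, scipy 1.17.1 and pysam 0.24.0, after these functions were tested on simulated data. Named genes were the 6 markers, the members of the 10 lists, the 20 loci with the most covered bp (a gene within 50 kb of a higher one counts under it, and genes without a symbol were skipped as leads) and the genes at the 15 widest peaks. Some list members and sequences are not reported here. CD69, HTRA3, SLC7A10, VSIR and SMAD3 were named after their values were seen. Members and lists were chosen with earlier results of these data known. Motifs were planned for the middle between summits of 1 domain; as each peak has 1 summit and none overlap, neighbouring peaks were used instead. Alternatives were other distances, windows, start sites, a 500 bp minimum width and merging of near peaks. Added after the data were seen were short-gap middles, covered length away from start sites, the CpG split, the short-gap state and the promoter motif shares.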

Additional observations from a re-analysis of the deposited data

How the results depend on the processing

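The distal share was 65.3% at 2.5 kb, 56.1% at 5 kb, 70.6% from the edge of the peak (also by domains), 77.7% with protein-coding start sites only and 64.1% for peaks of at least 500 bp, so most peaks were distal under each of these. Start sites of protein-coding genes were marked in 61.3% with a peak within 1 kb and 54.2% by any start site. Stem and progenitor genes rose to 11 of 14 by any start site, so they stood near the share over all genes only by canonical start site. Erythroid and megakaryocyte genes rose to 4 within 1 kb and fell to 1 with peaks of at least 500 bp. Housekeeping genes reached 14 within 1 kb. The 100 most covered genes shared 20 with a window of 10 kb, 35 with 100 kb and 45 by covered length away from start sites. With peaks within 1 kb merged, the widest domain was 42664 bp, at PPP3R1, and 4 of the 15 widest were shared.

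The ratio of the middle to 10 kb away was 2.71 for C/EBP with 100 bp windows and 3.04 for CTCF with summits 300 to 500 bp apart. At the middles of short gaps it was 5.92 for PU.1, 1.90 for C/EBP, 1.57 for AP-1, 2.08 for RUNX, 4.72 for the GC box and 4.40 for NRF1. The cause of these shifts was not tested. Under the main set of other settings, 60 values stayed within the limits set for them and 18 moved; of those added after the data were seen, 5 stayed and 7 moved. No paired analysis was possible because the vehicle libraries were pooled in a single list, which carries no replicate. Narrow or weak peaks depend on depth, which is unknown, and a start site without a peak is not shown to lack the mark.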
